A study of Arabidopsis thaliana with 28 samples.

Results

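The 52 genes described here encode proteins of the cytosolic ribosome of Arabidopsis thaliana, measured in closed flower buds. They were taken by locus identifier and protein family, as paralogues of RPS (small subunit) and RPL (large subunit) proteins, the P0, P1 and P2 proteins of the ribosomal stalk, and RACK1A. All 52 were found among the 27416 genes of the count tables, and all 52 passed the filter on low counts. They fall into 22 protein families. In 19 families at least 2 paralogues are included, which gives 42 pairs of paralogues, and 3 families are represented by 1 gene each although they have others (RPS15a, RPS27 and RACK1). P1 and P2 also have genes outside the 52, among them the P2 genes AT3G28500 and AT5G40040. By position in the ribosome, 18 genes belong to the small subunit, RACK1A included, 25 to the body of the large subunit and 9 to the stalk.

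A cytosolic ribosome joins a small subunit, which binds the messenger RNA and reads its codons, to a large subunit, which forms the peptide bonds. On the large subunit, P0 anchors dimers of the acidic proteins P1 and P2, and together they form the stalk that recruits elongation factors. RACK1 is a WD40 scaffold protein that docks on the head of the small subunit. In Arabidopsis nearly every ribosomal protein is encoded by several paralogous genes, and mutants of single paralogues often show pointed first leaves, altered leaf polarity or embryo lethality. Ribosomal protein genes are typically most active where cells divide and grow, as in young buds.

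The mutants were ibm1, ibm1 jmj27 and pds5, and Col, the Columbia accession, was the control, with 2 libraries of each genotype. IBM1 and JMJ27 are JmjC-domain demethylases that act on histone H3 lysine 9, and PDS5 proteins bind and regulate cohesin, the complex that holds sister chromatids together. The labels name neither the alleles nor the PDS5 genes that are disrupted in pds5. Whole closed buds were the material, so in every comparison fewer cells of a type and less RNA per cell cannot be told apart. The labels name chambers with long days and with short days without tying any library to either, and state neither harvest time nor separate plants, so p-values measure the spread between these libraries, which may be technical.

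Total counts ran from 19490663 to 26038662 per library, and single members held from 193 counts (AT3G10090) to 23938 counts (AT1G14320). The replicates of each genotype differed beyond sampling noise, with a chi-square per degree of freedom of 15.1 in ibm1 jmj27, against 2.33 in ibm1, 5.77 in pds5 and 2.95 in Col. The targeted genes moved with the labels, and some also differed where the label does not name them. IBM1 stood at 21.2 and 19.95 CPM (read counts scaled by TMM library sizes) in ibm1 and at 18.8 and 21.4 CPM in ibm1 jmj27, against 52.5 and 55.5 CPM in Col. JMJ27 stood at 8.35 and 8.40 CPM in ibm1 jmj27, against 64.0 and 64.7 CPM in Col. PDS5A stood at 3.30 and 3.51 CPM in pds5 and at 107 and 111.5 CPM in ibm1, against 236 and 249 CPM in Col. PDS5B (4.96 and 4.09 CPM in pds5, against 69.8 and 66.8 CPM in Col) and PDS5C (42.9 and 37.5 CPM in pds5, against 144 and 144 CPM in Col) were also low in pds5. PDS5E stood at 81.75 and 76.7 CPM in pds5, against 145 and 147 CPM in Col. It stood at 108 and 104 CPM in ibm1 and at 104 and 104 CPM in ibm1 jmj27. PDS5B stood at 39.75 and 48.15 CPM in ibm1 jmj27 as well. PDS5D stood at 39.6 and 39.75 CPM in pds5, against 37.1 and 36.7 CPM in Col.

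Tissue and clock markers also differed between the genotypes. The summed level of 8 tapetum and pollen wall genes was 2827 to 2965 CPM in ibm1, 737 to 1042 CPM in ibm1 jmj27 and 3945 to 4171 CPM in pds5, against 5122 to 5845 CPM in Col. The summed level of 8 late pollen genes was 84 to 88.4 CPM in ibm1, 2.76 to 3.73 CPM in ibm1 jmj27, where up to 3 of the 8 were at 0, and 267 to 337 CPM in pds5, against 256 to 271 CPM in Col. For 8 photosynthesis genes it was 15600 to 16140 CPM in ibm1, 19520 to 20390 CPM in ibm1 jmj27 and 13940 to 14150 CPM in pds5, against 9956 to 10110 CPM in Col. Genes of dividing cells (8 genes) summed to 438.5 to 442 CPM in ibm1, 466 to 495 CPM in ibm1 jmj27 and 507 to 535 CPM in pds5, against 512 to 538 CPM in Col. LHY, a morning gene of the circadian clock, stood at 18.6 and 20.5 CPM in ibm1, 484 and 502 CPM in ibm1 jmj27 and 607 and 597 CPM in pds5, against 3.01 and 2.86 CPM in Col. The part of tissue makeup and harvest time in the results that follow was not tested.

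The members took 1.45% and 1.40% of all counts in ibm1, 1.96% and 1.65% in ibm1 jmj27 and 1.80% and 1.75% in pds5, against 1.71% and 1.68% in Col. The ibm1 libraries were the lowest of the 8. The ibm1 jmj27 libraries lay farther from each other than any other pair of replicates, on either side of Col.

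**Figure D1:**
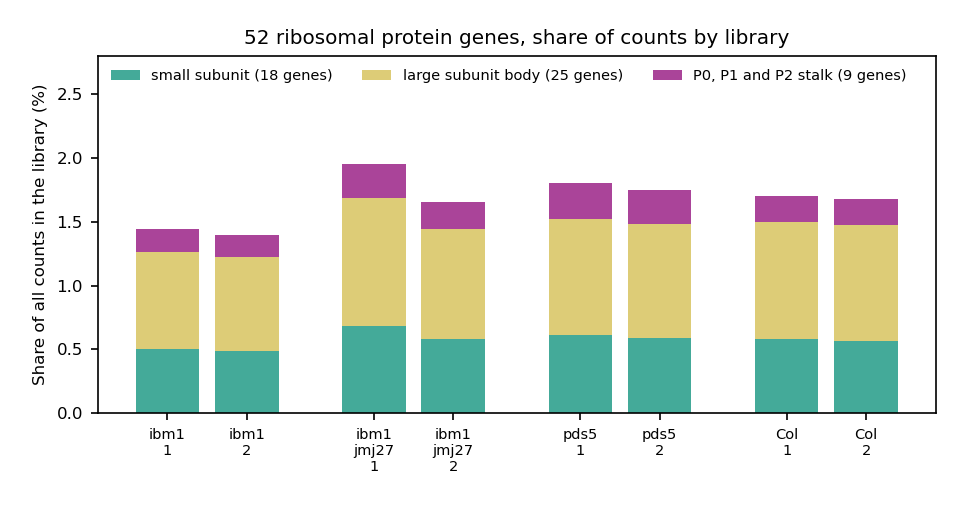
Share of all counts (percent, vertical axis) taken by the 52 ribosomal protein genes in each of the 8 libraries, stacked by small subunit, large subunit body and stalk. The ibm1 bars are the lowest at 1.45% and 1.40%, and the ibm1 jmj27 bars differ most between replicates, at 1.96% and 1.65%.

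In ibm1 buds ribosomal protein genes were lower by a small amount, with a number of calls that depended on the fit, and none were higher. Of the 52 members, 26 were lower and 0 were higher than in Col by the edgeR quasi-likelihood test (adjusted p under 0.05), where 31.0% of all genes passed, 16.5% higher and 14.5% lower. That fit held all 4 genotypes. With ibm1 and Col fitted alone, 46 members were lower and 0 higher, where 22.8% of all genes were lower and 22.5% higher. No member could be called higher at any threshold by edgeR or by the DESeq2 test, since 0 fitted changes were positive in either. The fitted log2 fold change of all 52 was negative, from -0.48 to -0.09 with a median of -0.25, against a median of 0.02 over all genes tested. Without Col replicate 1 the fitted change of AT2G27720, a P2 gene, turned positive, and the other 51 stayed negative. The lower members were 7 of 18 in the small subunit, 16 of 25 in the large subunit body and 3 of 9 in the stalk. With 1 library left out, 10 members were lower when it was Col replicate 1, 14 for Col replicate 2, 15 for ibm1 replicate 1 and 4 for ibm1 replicate 2.

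Among small subunit genes, RPS3 lies at the entry of the messenger RNA channel. Its paralogue AT2G31610 stood at 341 and 313 CPM in ibm1, against 451 and 427.5 CPM in Col (log2 fold change -0.43 ± 0.081 (SE), adjusted p = 0.00136). It was lower in each ibm1 library than in either Col library. Such separation of 2 libraries from 2 is given here and below as a description, and its share over all genes was not computed. Members that did not pass could lie apart too. RPS18C (AT4G09800) did so, at 293 and 277.5 CPM in ibm1, against 301 and 304 CPM in Col (adjusted p = 0.504).

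In the large subunit, AT5G60670 encodes RPL12, which sits at the base of the stalk. It stood at 133 and 127 CPM in ibm1, against 166 and 196 CPM in Col (log2 fold change -0.48 ± 0.094, adjusted p = 0.00163), the most negative change of any member in this comparison. AT4G10450, an RPL9 gene, stood at 38.3 and 39.5 CPM in ibm1, against 54.2 and 51.5 CPM in Col (-0.44 ± 0.091, adjusted p = 0.0023). AT1G70600, an RPL27a gene, stood at 350.4 and 322 CPM in ibm1, against 464 and 441 CPM in Col (-0.43 ± 0.090, adjusted p = 0.00281). RPL23AB (AT3G55280), a protein at the exit of the peptide tunnel, stood at 203 and 199 CPM in ibm1, against 248 and 274.5 CPM in Col (-0.38 ± 0.084, adjusted p = 0.00391). None of these 4 genes overlapped between ibm1 and Col libraries. The calls of AT1G70600 (adjusted p = 0.0562) and RPL23AB (adjusted p = 0.0518) ended without ibm1 replicate 2, and that of RPL23AB also without Col replicate 2 (adjusted p = 0.0733). In the stalk, the P0 gene AT3G11250 (-0.29 ± 0.069, adjusted p = 0.00533) and the P2 genes AT2G27710 (-0.36 ± 0.11, adjusted p = 0.0242) and AT3G44590 (-0.31 ± 0.10, adjusted p = 0.0347) were lower. The call of AT3G44590 ended whichever of the 4 libraries was omitted (adjusted p = 0.0618 to 0.214), that of AT2G27710 without Col replicate 1 (adjusted p = 0.226) or ibm1 replicate 2 (adjusted p = 0.222), and that of AT3G11250 without ibm1 replicate 2 (adjusted p = 0.0544).

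Beside these members, all 8 tapetum and pollen wall genes, 7 of 8 late pollen genes and 5 of 8 genes of dividing cells were lower in ibm1, and all 8 photosynthesis genes were higher. Of 8 ribosome assembly factors, 2 were lower and 0 higher. NUC1 and FIB2, the nucleolar proteins nucleolin and fibrillarin, stood at -0.48 ± 0.078 (adjusted p = 0.000398) and -0.50 ± 0.099 (adjusted p = 0.00188) on the log2 scale. The part of these markers in the lower ribosomal protein transcripts was not tested.

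In ibm1 jmj27 buds the members moved in both directions, and 5 of the 6 acidic stalk members (P1 and P2) and 2 of the 3 RPS28 genes were among those that were higher. Outside the members, the P2 gene AT5G40040 stood at 1.94 and 1.68 CPM in ibm1 jmj27, against 9.96 and 10.02 CPM in Col. The P2 gene AT3G28500 stood at 232 and 204.5 CPM in ibm1 jmj27, against 132 and 124 CPM in Col. Against Col, 17 of 52 members were higher and 6 lower, a share of 44.2%, where 50.5% of all genes tested passed (26.7% higher and 23.8% lower). The members' share was thus near the background. Their median log2 fold change was 0.12, against 0.03 over all genes tested. With ibm1 jmj27 and Col fitted alone, 12 members were higher and 3 lower, where 20.9% of all genes were higher and 22.5% lower. In the small subunit 7 of 18 were higher and 0 lower, in the large subunit body 5 of 25 were higher and 5 lower, and in the stalk 5 of 9 were higher and 1 lower. Without ibm1 jmj27 replicate 2, in which the members' share of counts was 1.65% against 1.96% in replicate 1, 30 members were higher and 2 lower. Without ibm1 jmj27 replicate 1 the counts were 16 and 10, without Col replicate 1 they were 14 and 3, and without Col replicate 2 they were 9 and 0. Among the genes named as higher, AT3G44590 of P2 (0.29 ± 0.098, adjusted p = 0.0252) did not pass by the DESeq2 test (adjusted p = 0.0882), with these genotypes fitted alone (adjusted p = 0.0978), without Col replicate 1 (adjusted p = 0.0636) or Col replicate 2 (adjusted p = 0.163), or without ibm1 jmj27 replicate 1, where it was at 0.13 (adjusted p = 0.268). AT3G10090 of RPS28 (0.51 ± 0.145, adjusted p = 0.0114) did not pass without Col replicate 2 (adjusted p = 0.0976) or ibm1 jmj27 replicate 2 (adjusted p = 0.0612).

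AT5G03850, which encodes RPS28, a small protein near the exit of the messenger RNA channel, stood at 184 and 149.7 CPM in ibm1 jmj27, against 105 and 98.8 CPM in Col (log2 fold change 0.71 ± 0.091, adjusted p = 2.13e-05). SAC52 (AT1G14320), the RPL10 gene whose product joins the large subunit late in assembly, stood at 929 and 821 CPM in ibm1 jmj27, against 611.5 and 600.1 CPM in Col (0.53 ± 0.084, adjusted p = 0.000151). AT3G53430, an RPL12 gene, stood at 312 and 249 CPM in ibm1 jmj27, against 192.5 and 189 CPM in Col (0.56 ± 0.096, adjusted p = 0.000307). All 3 were higher in each ibm1 jmj27 library than in either Col library, and replicate 1 was the higher of the mutant libraries each time.

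In the stalk, the P1 gene AT1G01100 stood at 455 and 354 CPM in ibm1 jmj27, against 260.3 and 278 CPM in Col (log2 fold change 0.59 ± 0.11, adjusted p = 0.000526). The P2 genes AT2G27710 and AT2G27720 lie next to each other on the chromosome. AT2G27710 stood at 342.5 and 279 CPM in ibm1 jmj27, against 213 and 185 CPM in Col (0.64 ± 0.11, adjusted p = 0.00027). AT2G27720 stood at 374 and 281 CPM in ibm1 jmj27, against 232 and 196 CPM in Col (0.61 ± 0.12, adjusted p = 0.00127). The groups did not overlap for any of these stalk genes. No P0 gene was higher. AT2G40010 was lower, at 22.7 and 18.4 CPM in ibm1 jmj27, against 24.6 and 25.3 CPM in Col (-0.27 ± 0.11, adjusted p = 0.0483), and AT3G09200 (-0.15 ± 0.091, adjusted p = 0.176) and AT3G11250 (-0.07 ± 0.068, adjusted p = 0.407) did not pass. The call of AT2G40010 ended by the DESeq2 test (adjusted p = 0.0736), with these genotypes fitted alone (adjusted p = 0.0595), without either Col library (adjusted p = 0.110 and 0.179) and without ibm1 jmj27 replicate 2, where it was at -0.14 (adjusted p = 0.262).

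The other lower members were large subunit genes. The neighbouring RPL9 genes PGY2 (AT1G33140), named for a mutant with outgrowths on the leaf, and AT1G33120 stood at 653.5 and 452 CPM and at 617 and 479.5 CPM in ibm1 jmj27, against 693 and 752 CPM and 653 and 713 CPM in Col. Their log2 fold changes were -0.39 ± 0.14 (adjusted p = 0.0423) and -0.32 ± 0.11 (adjusted p = 0.0253). Without ibm1 jmj27 replicate 2, the lower of the mutant libraries for both genes, both values were -0.15 (adjusted p = 0.0746 for PGY2 and 0.0590 for AT1G33120). With these genotypes fitted alone neither passed (adjusted p = 0.0610 for PGY2 and 0.0621 for AT1G33120), and without Col replicate 1 PGY2 did not pass (adjusted p = 0.0781) and AT1G33120 lay at the threshold (adjusted p = 0.05). AT4G29410, an RPL28 gene, stood at 239.5 and 223.5 CPM in ibm1 jmj27, against 284 and 292 CPM in Col (-0.32 ± 0.084, adjusted p = 0.00662). AT5G60670 of RPL12 (157 and 137 CPM in ibm1 jmj27, against 166 and 196 CPM in Col) was at -0.30 ± 0.094 (adjusted p = 0.0167) and RPL23AB (222 and 215 CPM in ibm1 jmj27, against 248 and 274.5 CPM in Col) at -0.26 ± 0.084 (adjusted p = 0.0208). Without Col replicate 2 none of the 6 lower members passed, with adjusted p from 0.0582 for AT4G29410 to 0.239 for AT5G60670, and AT5G60670 did not pass without ibm1 jmj27 replicate 2 either (adjusted p = 0.0558). Of 8 ribosome assembly factors, 3 were lower and 0 higher, with NUC1 at -0.60 ± 0.078 (adjusted p = 2.57e-05). In these buds 7 of 8 late pollen genes and 5 of 8 tapetum and pollen wall genes were lower and all 8 photosynthesis genes higher. Of 8 genes of dividing cells, 3 were lower and 1 higher. The part of these markers in the result was not tested.

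In pds5 buds the P1 and P2 members, the RPS15a and RPS27 members, both RPL27a genes and 2 of 3 genes each of RPS28 and RPL12 were higher, while the third RPS28 and RPL12 genes, an RPL28 gene, 2 RPL9 genes and both RPS6 genes were lower. Against Col, 19 of 52 members were higher and 10 lower, a share of 55.8%, where 49.0% of all genes tested passed (25.8% higher and 23.2% lower). This share was near the background too. The log2 fold changes ran from -0.86 to 1.02, a wider range than the -0.48 to -0.09 of ibm1, with a median of 0.08 against 0.00 over all genes tested. In the small subunit 6 of 18 were higher and 3 lower, in the large subunit body 7 of 25 were higher and 7 lower, and in the stalk 6 of 9 were higher and 0 lower. The number of lower members was 6 without Col replicate 2. Of the genes counted as higher, AT2G37190 of RPL12 (0.27 ± 0.081, adjusted p = 0.0138) lost its call whichever of the 4 libraries was omitted (adjusted p = 0.0710 to 0.100), as did AT5G10360 of RPS6 among the lower.

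AT3G10090, an RPS28 gene and the member with the fewest counts, stood at 31.0 and 34.5 CPM in pds5, against 16.8 and 15.6 CPM in Col (log2 fold change 1.02 ± 0.14, adjusted p = 7.58e-05). AT1G07770, the RPS15a member, stood at 466 and 459 CPM in pds5, against 275 and 243 CPM in Col (0.84 ± 0.089, adjusted p = 3.76e-06). In the large subunit, AT3G53430 of RPL12 stood at 359 and 343 CPM in pds5, against 192.5 and 189 CPM in Col (0.88 ± 0.097, adjusted p = 5.2e-06). All 3 genes lay above the Col range in both pds5 libraries. RS27A (AT3G61110), the RPS27 member, stood at 275.5 and 275 CPM in pds5, against 202 and 193.5 CPM in Col (0.48 ± 0.0996, adjusted p = 0.00135). No further RPS15a or RPS27 gene passed as higher in pds5. Of 5 further RPS15a genes, AT2G19720 was lower (-0.59 ± 0.107, adjusted p = 0.000427) and the others did not pass (adjusted p = 0.254 to 0.979). Of the other RPS27 genes, AT2G45710 was lower (-0.43 ± 0.084, adjusted p = 0.00085) and AT5G47930 did not pass (0.05 ± 0.095, adjusted p = 0.687). RPL27AB (AT1G23290) stood at 234 and 227 CPM in pds5, against 137.5 and 134 CPM in Col (0.77 ± 0.087, adjusted p = 7.29e-06).

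The acidic stalk members were all higher in pds5. Of P2, AT2G27710 stood at 396 and 394 CPM in pds5, against 213 and 185 CPM in Col (log2 fold change 0.99 ± 0.11, adjusted p = 6.16e-06). AT2G27720 stood at 385 and 382.5 CPM in pds5, against 232 and 196 CPM in Col (0.84 ± 0.12, adjusted p = 0.000122). All 3 P1 members were higher as well, at 0.73 ± 0.11 for AT1G01100 (adjusted p = 8.84e-05), 0.66 ± 0.11 for AT5G47700 (adjusted p = 0.00032) and 0.53 ± 0.086 for AT4G00810 (adjusted p = 0.000176). The third P2 member, AT3G44590, was at 0.49 ± 0.097 (adjusted p = 0.00084). All 6 acidic stalk members therefore passed, whereas the P0 genes stood at -0.05, -0.14 and -0.15 and none passed (adjusted p = 0.0750 to 0.722).

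Among the lower members, AT4G29410 of RPL28 stood at 161 and 157 CPM in pds5, against 284 and 292 CPM in Col (log2 fold change -0.86 ± 0.085, adjusted p = 1.81e-06). AT5G64140 of RPS28 stood at 135 and 137 CPM in pds5, against 199.5 and 196 CPM in Col (-0.54 ± 0.098, adjusted p = 0.000448). AT1G33120 of RPL9 stood at 504 and 465 CPM in pds5, against 653 and 713 CPM in Col (-0.50 ± 0.11, adjusted p = 0.00184). In all 3 the pds5 libraries lay below both Col libraries. AT5G60670 of RPL12 (136 and 126 CPM in pds5, against 166 and 196 CPM in Col) and RPL23AB (183 and 208 CPM in pds5, against 248 and 274.5 CPM in Col) were at -0.465 ± 0.094 (adjusted p = 0.00103) and -0.42 ± 0.084 (adjusted p = 0.000975). PGY2 stood at 566 and 513 CPM in pds5, against 693 and 752 CPM in Col (-0.42 ± 0.14, adjusted p = 0.0302), a call that ended without Col replicate 1 (adjusted p = 0.0630), Col replicate 2 (adjusted p = 0.152) or pds5 replicate 2 (adjusted p = 0.126). The RPS6 genes, whose product is the classic phosphorylated target of S6 kinase in the TOR pathway, were both lower, at -0.36 ± 0.077 for AT4G31700 (adjusted p = 0.00175) and -0.28 ± 0.083 for AT5G10360 (adjusted p = 0.0126). The call of AT5G10360 ended whichever of the 4 libraries was omitted (adjusted p = 0.0559 to 0.0978). Of 8 ribosome assembly factors, 4 were lower and 2 higher, with NUC1 at -0.94 ± 0.079 (adjusted p = 3.58e-07). In these buds 6 of 8 tapetum and pollen wall genes were lower and 1 higher, and 5 of 8 photosynthesis genes and 1 of 8 late pollen genes were higher. Of 8 genes of dividing cells, 2 were lower and 1 higher. The part of these markers in the result was not tested.

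**Figure D2:**
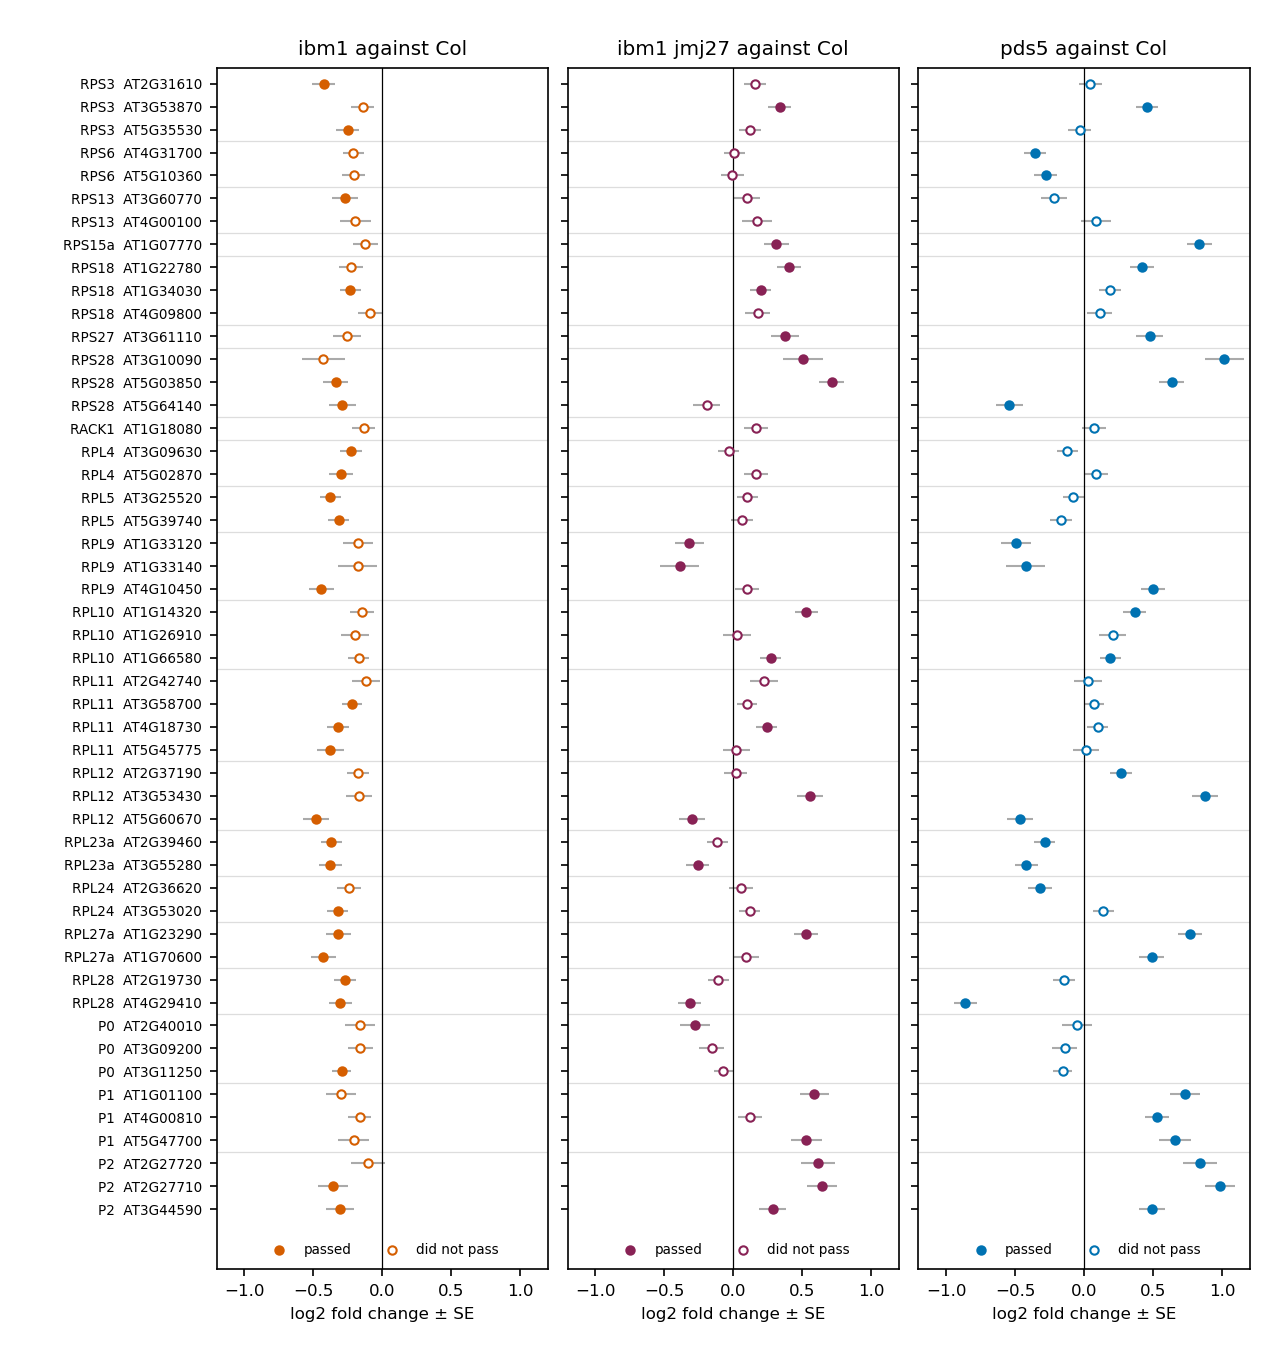
Log2 fold change against Col (horizontal axis, with SE) of the members reported by name in ibm1, ibm1 jmj27 and pds5, ordered by family from small subunit to stalk. Filled points passed the edgeR test at an adjusted p under 0.05 over all genes. All ibm1 points lie left of 0, while the pds5 points run from -0.86 to 1.02 and spread within families.

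Set against ibm1, the ibm1 jmj27 buds had higher levels of most members. Of 52, 39 were higher and 0 lower by edgeR, where 45.5% of all genes passed, 22.7% higher and 22.8% lower. At an unadjusted p under 0.05, or by the DESeq2 test, 0 members were lower too. The median log2 fold change was 0.38, against 0.00 over all genes tested. In the small subunit 16 of 18 were higher, in the large subunit body 16 of 25 and in the stalk 7 of 9. Of the markers, 7 of 8 late pollen genes were lower and 1 higher, and 6 of 8 photosynthesis genes were higher. Of 8 tapetum and pollen wall genes 3 were higher and 3 lower, and 3 of 8 genes of dividing cells were higher. The part of these markers was not tested. This comparison shares the ibm1 libraries with that of ibm1 against Col, so the low ibm1 levels enter both. Leaving out any 1 of the 4 libraries gave 26 to 45 higher members, and 2 lower members appeared without ibm1 jmj27 replicate 1.

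AT5G03850 of RPS28 showed the largest value, at 184 and 149.7 CPM in ibm1 jmj27, against 82.2 and 78.9 CPM in ibm1 (log2 fold change 1.05 ± 0.092, adjusted p = 9.72e-07). AT3G10090 of the same family stood at 22.3 and 23.7 CPM in ibm1 jmj27, against 14.4 and 9.49 CPM in ibm1 (0.93 ± 0.15, adjusted p = 0.000308). RPL27AB stood at 213 and 177 CPM in ibm1 jmj27, against 111.5 and 106 CPM in ibm1 (0.84 ± 0.088, adjusted p = 5.08e-06). None of these genes overlapped between the genotypes. In the stalk, AT2G27710 of P2 stood at 342.5 and 279 CPM in ibm1 jmj27, against 167 and 144 CPM in ibm1 (1.00 ± 0.11, adjusted p = 9.37e-06). AT1G01100 of P1 stood at 455 and 354 CPM in ibm1 jmj27, against 220.5 and 216 CPM in ibm1 (0.89 ± 0.11, adjusted p = 2.42e-05). AT5G47700 of P1 stood at 374 and 278.5 CPM in ibm1 jmj27, against 195 and 196 CPM in ibm1 (0.74 ± 0.11, adjusted p = 0.000174). All 3 stalk genes were again higher in both libraries. RACK1A (AT1G18080) was higher here, at 674 and 584 CPM in ibm1 jmj27, against 511 and 509 CPM in ibm1 (0.30 ± 0.086, adjusted p = 0.0116), a call that ended with these genotypes fitted alone (adjusted p = 0.0607) and without ibm1 replicate 1 (adjusted p = 0.0816) or ibm1 replicate 2 (adjusted p = 0.106). Against Col it did not pass in ibm1 (-0.14 ± 0.086, adjusted p = 0.256), ibm1 jmj27 (0.17 ± 0.086, adjusted p = 0.125) or pds5 (0.07 ± 0.086, adjusted p = 0.506).

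Paralogues of one protein were then compared with each other. The measure was the log2 ratio of the first gene's CPM to the second's in each library, and its change between genotypes was tested with limma over all genes and pairs, with a 95% interval of the change. Against Col, 7 of 42 member pairs changed for ibm1 (16.7%), 20 for ibm1 jmj27 (47.6%) and 18 for pds5 (42.9%). Among 166 pairs of other cytosolic ribosomal protein genes, 19.3% changed for ibm1, 34.9% for ibm1 jmj27 and 44.6% for pds5, so the members' shares in ibm1 and pds5 were near those of the rest of the ribosome. In ibm1 jmj27 against ibm1, 19 of 42 member pairs (45.2%) and 47.0% of the other pairs changed. Over all genes and pairs, the same limma test called 31.2% for ibm1, 50.4% for ibm1 jmj27 and 48.4% for pds5 against Col, and 45.6% for ibm1 jmj27 against ibm1. At least 1 ratio changed in 5 of 19 families in ibm1, and in 11 of 19 in each of the other comparisons. No such count was made for other families, and larger families hold more pairs, so it is a description only. Of the 7 changed pairs of ibm1, 2 still passed when either Col library was omitted, 1 when ibm1 replicate 1 was and 0 when ibm1 replicate 2 was. The 20 of ibm1 jmj27 were 13 without Col replicate 2, and the 19 of ibm1 jmj27 against ibm1 were 12 without ibm1 replicate 2.

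In RPS28, both AT3G10090 and AT5G03850 gained on AT5G64140. The log2 ratio of AT5G03850 to AT5G64140 was -1.06 and -0.95 in ibm1, -0.06 and -0.04 in ibm1 jmj27 and 0.25 and 0.20 in pds5, against -0.93 and -0.99 in Col. Its change was 0.91 (interval 0.76 to 1.06, adjusted p = 2.7e-07) in ibm1 jmj27 and 1.18 (interval 1.03 to 1.33, adjusted p = 2.36e-08) in pds5, against -0.05 (interval -0.20 to 0.10, adjusted p = 0.660) in ibm1. The libraries of ibm1 jmj27 and pds5 thus lay apart from those of Col, and the ibm1 libraries overlapped Col. The ratio of AT3G10090 to AT5G64140 was -3.56 and -3.99 in ibm1, -3.10 and -2.69 in ibm1 jmj27 and -2.12 and -1.99 in pds5, against -3.57 and -3.64 in Col. Its change in pds5, 1.55 (interval 1.21 to 1.89, adjusted p = 8.17e-06), was the largest of all member pairs against Col, and in ibm1 jmj27 it was 0.71 (interval 0.37 to 1.04, adjusted p = 0.00277). The summed RPS28 level was 327 ± 2.07 CPM in pds5 and 316 ± 7.67 CPM in Col (SD, n = 2), a mean 3.48% above Col. AT5G64140 held 41.4% and 41.7% of the family's counts in pds5, against 62.1% and 63.2% in Col.

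In RPL12, AT3G53430 gained on AT5G60670 and on AT2G37190. The log2 ratio of AT3G53430 to AT5G60670 was 0.38 and 0.40 in ibm1, 0.99 and 0.86 in ibm1 jmj27 and 1.40 and 1.44 in pds5, against 0.22 and -0.05 in Col. Its change was 0.31 (interval 0.12 to 0.50, adjusted p = 0.0181) in ibm1, 0.84 (interval 0.65 to 1.03, adjusted p = 5.09e-06) in ibm1 jmj27 and 1.34 (interval 1.15 to 1.53, adjusted p = 6.7e-08) in pds5. All mutant libraries lay above both Col libraries, and the ibm1 call ended without Col replicate 2 or either ibm1 library. The ratio of AT2G37190 to AT3G53430 was 0.52 and 0.57 in ibm1, -0.04 and 0.09 in ibm1 jmj27 and -0.09 and -0.02 in pds5, against 0.55 and 0.56 in Col. That ratio changed by -0.53 (interval -0.69 to -0.37, adjusted p = 6.06e-05) in ibm1 jmj27 and by -0.61 (interval -0.77 to -0.45, adjusted p = 1.9e-05) in pds5, and stood at -0.01 (interval -0.17 to 0.15, adjusted p = 0.944) in ibm1. The ratio of AT2G37190 to AT5G60670 was 0.90 and 0.97 in ibm1, 0.94 and 0.95 in ibm1 jmj27 and 1.31 and 1.42 in pds5, against 0.76 and 0.50 in Col, with a change of 0.73 (interval 0.54 to 0.92, adjusted p = 1.7e-05) in pds5. It also changed by 0.30 in ibm1 and by 0.31 in ibm1 jmj27. Both of these calls ended by limma without trend (adjusted p = 0.0909 and 0.0556). Without Col replicate 2 these changes were 0.17 and 0.18. The summed RPL12 level was 819 ± 17.5 CPM in pds5 and 652 ± 16.9 CPM in Col (SD, n = 2).

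**Figure D3:**
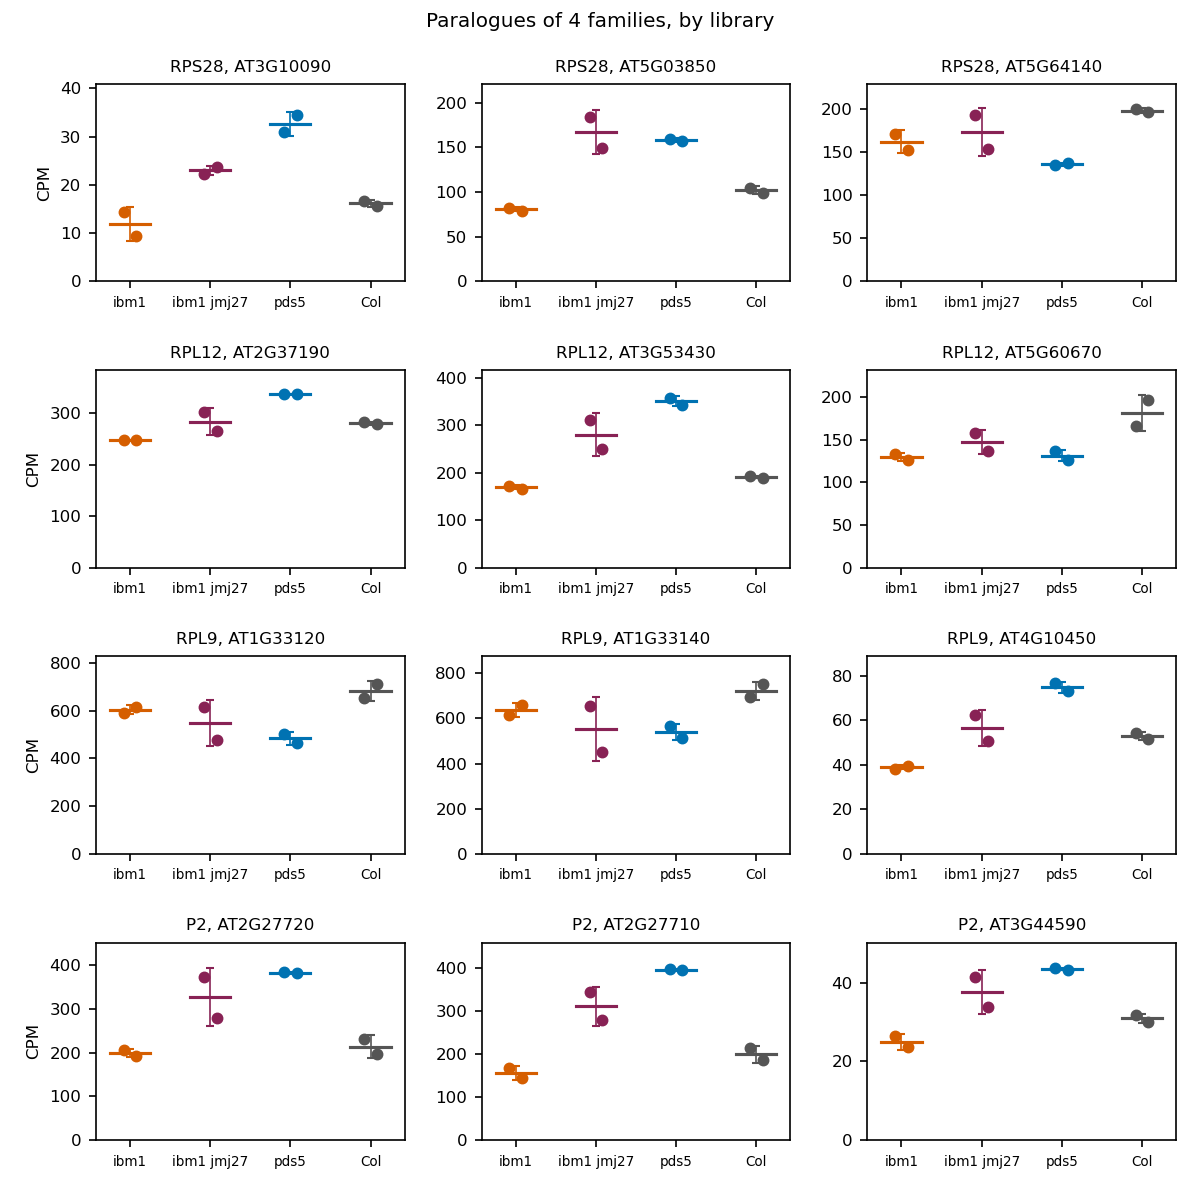
Level (CPM, vertical axis, from 0) of the paralogues of RPS28, RPL12, RPL9 and P2 in each library, with points for libraries, a line for the mean of 2 and bars for the SD. Within RPS28, RPL12 and RPL9 the pds5 points lie above Col for at least 1 paralogue and below Col for another, as for AT3G53430 (359 and 343 CPM) and AT5G60670 (136 and 126 CPM), while all P2 members lie above Col.

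In RPL9, the pair of neighbouring genes lost ground to AT4G10450. The log2 ratio of AT1G33120 to AT4G10450 was 3.94 and 3.96 in ibm1, 3.31 and 3.24 in ibm1 jmj27 and 2.72 and 2.67 in pds5, against 3.59 and 3.79 in Col. It changed by -0.42 (interval -0.59 to -0.25, adjusted p = 0.000646) in ibm1 jmj27 and by -0.997 (interval -1.16 to -0.83, adjusted p = 3.45e-07) in pds5. In ibm1 it changed the other way, by 0.26 (interval 0.10 to 0.43, adjusted p = 0.0206). The ratio of PGY2 to AT4G10450 changed in the same manner, by -0.50 (interval -0.70 to -0.31, adjusted p = 0.000507) in ibm1 jmj27, by -0.92 (interval -1.12 to -0.73, adjusted p = 2.78e-06) in pds5 and by 0.26 (interval 0.07 to 0.46, adjusted p = 0.0409) in ibm1. The ibm1 values of both pairs ended when Col replicate 1 or either ibm1 library was left out. AT1G33120 and PGY2 themselves kept a ratio whose change did not pass, with intervals of -0.17 to 0.17 in ibm1, -0.09 to 0.25 in ibm1 jmj27 and -0.24 to 0.10 in pds5. These neighbouring copies have no protein-coding gene between them in the RefSeq order, and reads shared by them could have been split in counting. RPL9 as a whole was at 1281 ± 50.8 CPM in ibm1, 1158 ± 248 CPM in ibm1 jmj27 and 1099 ± 67.3 CPM in pds5, against 1459 ± 82.1 CPM in Col (SD, n = 2).

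In RPL28, the ratio of AT2G19730 to AT4G29410 was 0.50 and 0.62 in ibm1, 0.74 and 0.72 in ibm1 jmj27 and 1.22 and 1.25 in pds5, against 0.51 and 0.54 in Col. It changed by 0.71 (interval 0.56 to 0.86, adjusted p = 3.19e-06) in pds5 and by 0.21 (interval 0.06 to 0.36, adjusted p = 0.0247) in ibm1 jmj27, where the call ended without either Col library, and stood at 0.04 (interval -0.11 to 0.19, adjusted p = 0.721) in ibm1. In RPL27a, the ratio of RPL27AB to AT1G70600 was -1.65 and -1.60 in ibm1, -1.29 and -1.32 in ibm1 jmj27 and -1.45 and -1.47 in pds5, against -1.76 and -1.72 in Col. This was a family in which both genes were higher in pds5 and the ratio still changed, by 0.43 (interval 0.28 to 0.57, adjusted p = 0.000165) in ibm1 jmj27 and by 0.27 (interval 0.13 to 0.42, adjusted p = 0.00423) in pds5. In RPL24, whose gene STV1 (AT3G53020) is known for its part in translation restart after upstream reading frames, the ratio of RPL24A to STV1 was -0.66 and -0.76 in pds5, against -0.25 and -0.25 in Col. It changed in pds5, by -0.46 (interval -0.62 to -0.29, adjusted p = 0.00027), and did not pass in ibm1 (interval -0.08 to 0.25) or ibm1 jmj27 (interval -0.23 to 0.10).

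In RPL10, SAC52 gained on RPL10B (AT1G26910) in ibm1 jmj27, with a ratio of 5.40 and 5.27, against 4.73 and 4.95 in Col (change 0.50, interval 0.29 to 0.71, adjusted p = 0.000935). In pds5 that ratio was 4.98 and 5.02, and its change of 0.16 did not pass (interval -0.05 to 0.37, adjusted p = 0.194). Among small subunit families, AT3G53870 of RPS3 gained on AT5G35530, by 0.22 (interval 0.05 to 0.39, adjusted p = 0.0341) in ibm1 jmj27, a call that ended without either Col library, and by 0.49 (interval 0.32 to 0.66, adjusted p = 0.000214) in pds5. In RPS18, whose gene PFL (AT1G22780) is named for the pointed first leaves of its mutant, PFL gained on RPS18C (AT4G09800), by 0.23 (interval 0.07 to 0.39, adjusted p = 0.0208) in ibm1 jmj27, ending without either Col library, and by 0.31 (interval 0.15 to 0.47, adjusted p = 0.00423) in pds5, ending without Col replicate 2 or pds5 replicate 2. In RPS13, AT3G60770 lost ground to RPS13A (AT4G00100) in pds5, by -0.31 (interval -0.46 to -0.15, adjusted p = 0.00315).

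Among the acidic stalk genes, ratios changed within both P1 and P2. In P1, AT1G01100 gained on AT4G00810 by 0.46 (interval 0.30 to 0.63, adjusted p = 0.00028) in ibm1 jmj27 and by 0.20 (interval 0.04 to 0.37, adjusted p = 0.0427) in pds5, the second of which ended whichever of the 4 libraries was omitted. In P2, AT2G27710 gained on AT3G44590 by 0.36 (interval 0.20 to 0.53, adjusted p = 0.00157) in ibm1 jmj27 and by 0.50 (interval 0.34 to 0.66, adjusted p = 0.000138) in pds5. The summed level of the 3 P2 members was 380 ± 28.2 CPM in ibm1, 676 ± 117 CPM in ibm1 jmj27 and 822 ± 2.98 CPM in pds5, against 444 ± 46.3 CPM in Col (SD, n = 2). The summed level of the 3 P1 members was 564.5 ± 9.97 CPM in ibm1, 914 ± 160.4 CPM in ibm1 jmj27 and 1047 ± 68.0 CPM in pds5, against 663.5 ± 12.1 CPM in Col. The summed P0 level was 828.5 ± 18 CPM in ibm1, 841.5 ± 101 CPM in ibm1 jmj27 and 847 ± 0.248 CPM in pds5, against 933 ± 24.8 CPM in Col. The P1 and P2 means were above Col in ibm1 jmj27 and pds5 and below it in ibm1, and the P0 mean was below Col in all 3 mutants. These sums were not tested, and they leave out the P2 genes AT3G28500 and AT5G40040 and the P1 gene AT5G24510, which are not members.

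**Figure D4:**
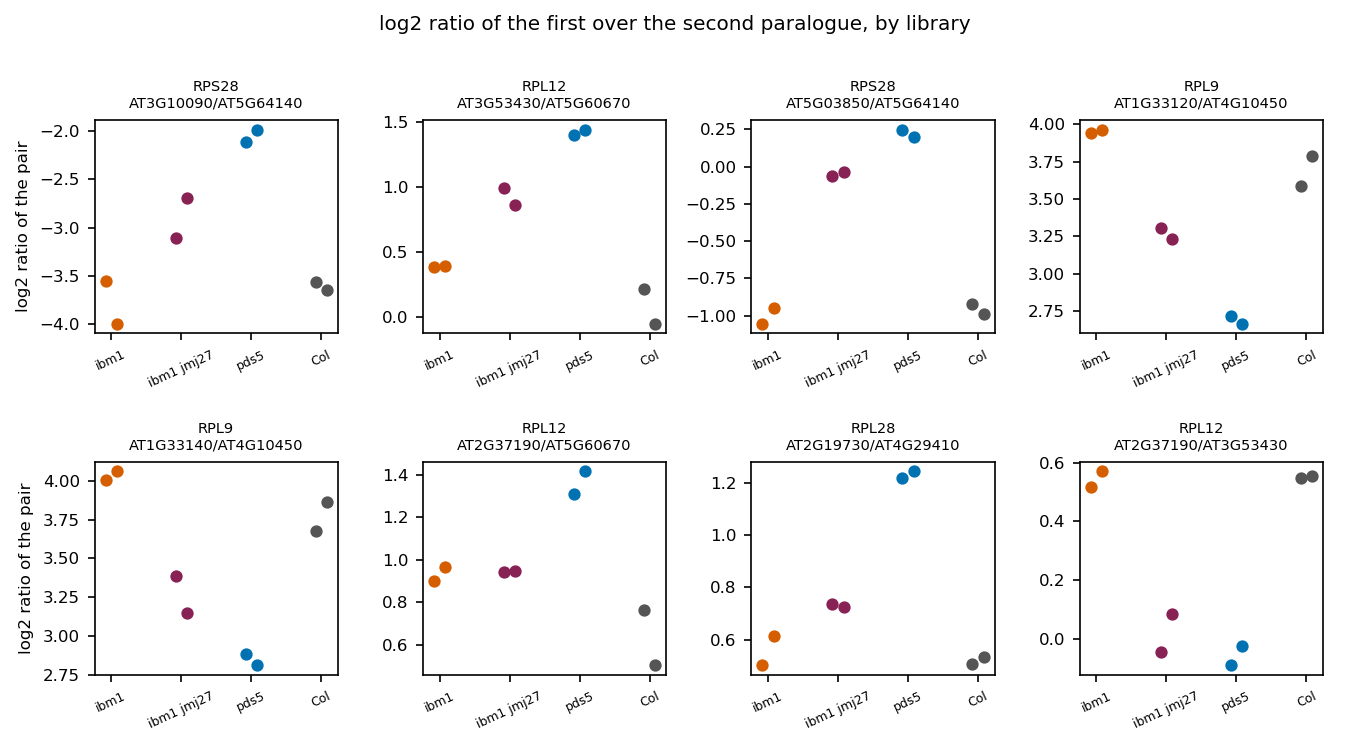
Log2 ratio of the first over the second paralogue (vertical axis, scaled separately in each panel and not starting at 0) in every library for the 8 pairs with the largest changes against Col. In each panel the pds5 points lie apart from the Col points, from 0.25 and 0.20 against -0.93 and -0.99 for AT5G03850 over AT5G64140 to 2.72 and 2.67 against 3.59 and 3.79 for AT1G33120 over AT4G10450.

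In RPS6, RPL5 and RPL23a no ratio passed in any of the 4 comparisons. RPL5 binds the 5S ribosomal RNA, and the ratio of ATL5 (AT3G25520) to RPL5B (AT5G39740) changed by an amount with an interval of -0.22 to 0.10 in ibm1, -0.12 to 0.20 in ibm1 jmj27 and -0.07 to 0.25 in pds5. For the RPS6 pair the intervals were -0.17 to 0.17 in ibm1, -0.15 to 0.19 in ibm1 jmj27 and -0.25 to 0.09 in pds5. For the RPL23a pair they were -0.17 to 0.19 in ibm1, -0.04 to 0.32 in ibm1 jmj27 and -0.04 to 0.31 in pds5. These intervals leave room for changes of ratio of up to 0.32 on the log2 scale. In ibm1, AT2G31610 of RPS3 lost ground to AT3G53870, by -0.28 (interval -0.46 to -0.11, adjusted p = 0.0184), which ended whichever of the 4 libraries was omitted, and AT2G27720 of P2 gained on its neighbour AT2G27710, by 0.26 (interval 0.10 to 0.42, adjusted p = 0.0194), which ended without either Col library or ibm1 replicate 2. The ratio of AT2G31610 to AT3G53870 was 0.02 and -0.06 in ibm1 and -0.01 and 0.19 in ibm1 jmj27. In pds5 it was -0.16 and -0.13, against 0.25 and 0.28 in Col, so a lower ratio was not particular to ibm1. Ratios of RPL4 and P0 passed in ibm1 jmj27 against ibm1 and did not pass against Col, a contrast that was not tested. The RPL4 pair AT3G09630/AT5G02870 (adjusted p = 0.0174) no longer passed without either ibm1 library (adjusted p = 0.0681 and 0.139), and the P0 pairs AT2G40010/AT3G11250 (adjusted p = 0.0164) and AT3G09200/AT3G11250 (adjusted p = 0.0231) no longer passed without ibm1 replicate 2 (adjusted p = 0.169 and 0.0968) or ibm1 jmj27 replicate 2 (adjusted p = 0.0686 and 0.0685). AT3G09200/AT3G11250 did not pass without ibm1 replicate 1 either (adjusted p = 0.124). In RPL11, which also binds the 5S ribosomal RNA, RPL16B (AT4G18730) gained on AT5G45775 in ibm1 jmj27 against Col, by 0.22 (interval 0.04 to 0.39, adjusted p = 0.0384), ending without Col replicate 1.

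The comparisons of ibm1 jmj27 with ibm1 and of pds5 with Col share no library. Across the 52 members their log2 fold changes had a Pearson r of 0.82 and a Spearman rho of 0.80, given as a description across genes, which are not independent replicates. Over 167 other ribosomal protein genes r was 0.24 and rho 0.56, and over all 21548 genes tested r was 0.17 and rho 0.30. For the ratios of the 42 member pairs r was 0.80 and rho 0.72, against 0.11 and 0.30 over 166 other pairs. The other genes include some near the floor, such as AT5G43640 at 0 to 2.64 CPM. Every member, by contrast, had at least 193 counts in every library. The members were also chosen with earlier results of these data known. The contrast between members and other genes or pairs is thus a description and was not tested. Of the member pairs, 11 changed in both comparisons, which is 57.9% of the 19 in the first and 61.1% of the 18 in the second, and all 11 changed in the same direction. Of the other pairs, 36 changed in both, which is 46.2% of the 78 in the first and 48.6% of the 74 in the second, and 30 of the 36 changed in the same direction. LHY moved the same way in both, by 4.66 ± 0.091 and 7.68 ± 0.11 on the log2 scale, and its part in the likeness was not tested.

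**Figure D5:**
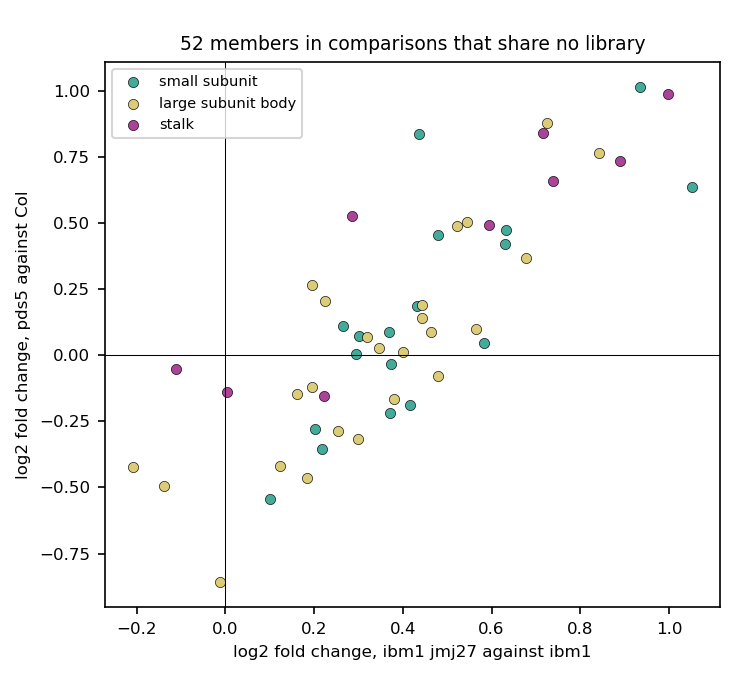
Log2 fold change of each of the 52 members in ibm1 jmj27 against ibm1 (horizontal axis) and in pds5 against Col (vertical axis), coloured by small subunit, large subunit body and stalk. The points run from lower left to upper right (r = 0.82), with P2 gene AT2G27710 (1.00 and 0.99) near the upper right and RPL28 gene AT4G29410 (-0.01 and -0.86) at the bottom.

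The rest of the cytosolic ribosomal protein genes gave the setting for the members. Of 171 further genes listed by family, 167 were tested. In ibm1, 89 were lower and 3 higher, with a median log2 fold change of -0.26. In ibm1 jmj27, 59 were higher and 10 lower (median 0.14), and in pds5, 54 were higher and 26 lower (median 0.12). In ibm1 jmj27 against ibm1, 127 were higher and 9 lower (median 0.43). The share of these genes called was 55.1% in ibm1, against 31.0% of all genes tested. It was 41.3% in ibm1 jmj27, against 50.5%, and 47.9% in pds5, against 49.0%. For ibm1 jmj27 against ibm1 it was 81.4%, against 45.5%. Lower levels in ibm1 were also found in ribosomal protein genes outside the 52. The remaining RACK1 genes, AT1G48630 and AT3G18130, were lower in ibm1, at -0.48 ± 0.082 (adjusted p = 0.000583) and -0.36 ± 0.075 (adjusted p = 0.00276), and higher in pds5, at 0.25 ± 0.081 (adjusted p = 0.0222) and 0.36 ± 0.074 (adjusted p = 0.00121).

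Single genes of the wider set lay beyond the members' range. In ibm1, the RPS16 gene AT3G04230 was at -1.99 ± 0.19 (adjusted p = 4.07e-06) on the log2 scale. In ibm1 jmj27, among genes that passed, the RPS15 gene AT5G09500 was at -4.34 (0.854 and 1.87 CPM in ibm1 jmj27, against 26.2 and 27.3 CPM in Col) and the P2 gene AT5G40040 at -2.45 (1.94 and 1.68 CPM in ibm1 jmj27, against 9.96 and 10.02 CPM in Col), while the RPS9 gene AT5G39850 was at 0.83 and the P2 gene AT3G28500 at 0.77. In pds5, the RPS2 gene AT1G59359, named after its values were seen, stood at 82.9 and 75.3 CPM, against 23.0 and 37.6 CPM in Col (1.37 ± 0.215, adjusted p = 0.00227). Within the members' range in pds5, the RPL22 gene AT5G27770 and the P2 gene AT3G28500 were each at 0.85, and the RPSa gene AT3G04770 was at -0.69, all of which passed.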

How the data were processed

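RNA of closed buds was sequenced in 8 libraries, and the deposited values are raw read counts per gene in 3 tables, each pairing the Col libraries with 1 mutant. The Col columns were identical in all 3 tables. Per the submitters' processing notes, the tools named are HISAT2, Subread and DESeq2 and the build is TAIR10. Versions, the strand setting and the rule for reads shared by several genes are not stated there, so counts of near-identical paralogues and of overlapping or antisense genes are uncertain. The 20 chromatin immunoprecipitation and input libraries were not analysed here, and 0 per-sample columns lacked a matching sample.

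One joint fit of all 8 libraries was made in R 4.3.3, since 2 libraries a group leave little information on spread. It takes the spread of a gene to be the same in all genotypes, although replicates differed most in ibm1 jmj27. Calls in a comparison thus depend on libraries outside it as well. Genes were filtered with filterByExpr, which left 21548, and tested with the edgeR 4.0.16 quasi-likelihood test (TMM scaling, robust, 4 residual degrees of freedom, Benjamini-Hochberg over all genes tested, adjusted p under 0.05, no minimum fold). The standard error was derived as the size of the log2 fold change divided by the root of F. CPM values were computed from the deposited counts and are not corrected for gene length, so levels are compared between genotypes and not between genes. Ratios of paralogues were tested with limma 3.58.1 (trend, robust) on log2 CPM (prior count 2), with all genes, 42 member pairs and 166 other ribosomal protein pairs in one adjustment. Both steps were run on simulated data with known changes in ibm1 and the same spread in all genotypes. That run cannot show how the calls behave where the spread differs between genotypes, as it did here.

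A RefSeq table of assembly TAIR10.1 gave symbols for 24 of the 52 members and the order of genes. The other 28 are named by locus, and their families follow the standard nomenclature of Arabidopsis ribosomal proteins. No protein table was used, so pairs over the whole genome and levels per length were not analysed here. 1 family is counted in all totals but is not reported here by name. The rule for the members uses locus and family alone, but the members, lists and tests were chosen with earlier results of these data known. By the rule for named genes, values in every library are given for up to 6 members a direction and comparison with the largest log2 fold change among those that passed, and for the 8 member pairs with the largest change of ratio against Col, while further members and their pairs are named to account for every family. Other ribosomal protein genes are given as counts with examples of smallest p, and the RACK1 genes among them were added after their values were seen. Alternatives were DESeq2 size factors, no filter, the DESeq2 1.42.0 Wald test, a fit of the compared genotypes only, a replicate block, omission of each library, a minimum absolute log2 fold change of 0.5, a prior count of 0.5 and limma without trend.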

Additional observations from a re-analysis of the deposited data

How the results depend on the processing

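No called member or member pair reversed its direction under any alternative run. Among settings that keep all libraries, the largest moves came from fitting both genotypes alone, which gave 46 lower members for ibm1, 3 for ibm1 jmj27 and 16 for pds5 (with 22.8%, 22.5% and 27.6% of all genes lower in those fits), and from a minimum absolute log2 fold change of 0.5. That minimum left 0 lower members in ibm1, 9 higher and 0 lower in ibm1 jmj27, 11 higher and 2 lower in pds5, and 16 higher in ibm1 jmj27 against ibm1. No share over all genes was computed for that minimum or for the runs with 1 library left out. Limma without trend gave 0 changed pairs in ibm1 and 13 in ibm1 jmj27. DESeq2 size factors, no filter on low counts and the DESeq2 test kept every count of members within 1.5 times, and DESeq2 size factors and a prior count of 0.5 did so for every count of pairs. The cause of these moves was not tested beyond their construction, since a minimum fold can only remove calls.

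Leaving out each library in turn, which also leaves fewer samples for the spread and assumes that the lone library varies like the others, gave 4 to 15 lower members in ibm1, 9 to 30 higher and 0 to 10 lower in ibm1 jmj27, 17 to 18 higher and 6 to 8 lower in pds5, and 26 to 45 higher and 0 to 2 lower in ibm1 jmj27 against ibm1. Changed pairs numbered 0 to 2 for ibm1, 13 to 23 for ibm1 jmj27, 14 to 17 for pds5 and 12 to 28 for ibm1 jmj27 against ibm1.

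The labels number the replicates 1 and 2 in each genotype. Differences between replicates 1 and 2 had correlations of -0.00671 to 0.101 between genotypes. The labels do not say whether same-numbered libraries share a batch, and low correlations cannot settle it. With a replicate block the members were 0 higher and 30 lower in ibm1, 17 and 6 in ibm1 jmj27, 20 and 10 in pds5, and 40 and 0 in ibm1 jmj27 against ibm1, and changed pairs were 7, 21, 19 and 19. Over all genes that fit called 17.2% higher and 15.4% lower for ibm1 and 27.1% and 24.5% for ibm1 jmj27. For pds5 the shares were 26.3% and 24%, and for ibm1 jmj27 against ibm1 they were 23.4% and 23.6%. Every member had at least 193 counts in every library, and with 2 libraries a genotype the spread between replicates was estimated from few values.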
